A study of Mus musculus with 12 samples.

Results

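The ADAM, ADAMTS and ADAMTS-like genes are a family of membrane-bound and secreted proteins built around a shared domain plan, most of them zinc proteases. The members were taken by symbol: every mouse gene whose symbol is Adam, Adamts or Adamtsl followed by a number, reached from the accession that the array gives for each probe. The array carried 51 such genes on 86 probes, out of 19096 named genes with a probe. Of these, 39 members on 60 probes were bright enough to be tested, out of 20875 genes and unnamed accessions tested in all, 15558 of them with a symbol, and the other 12 were not. The annotation holds 58 genes of this naming pattern, and the 7 with no probe named (Adam3, Adam10, Adam20, Adam26b, Adam34, Adam34l and Adamts17) were not analysed here.

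RNA of mouse cells was read on 12 one-colour arrays in 3 groups of 4. The groups are undifferentiated embryonic stem cells (mESC) and their progeny at day 9 (Day 9) and day 14 (Day 14) of a differentiation into heart muscle cells. The protocols given for all 12 samples describe seeding on crosslinked elastin-like polypeptide, a protein polymer patterned on elastin, first without LIF, the factor that holds mouse stem cells undifferentiated, and then in a medium with a serum replacement. The same texts stand beside the mESC samples, for which no sampling day is given, and the cell line and the number of separate cultures are not given in the sources used here. Since nothing says that the samples of a group were grown apart, the p-values rest on their spread alone, which may be technical.

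ADAM proteins sit in the cell membrane. Those with an intact zinc site cut other membrane proteins just outside the cell and so release growth factors, cytokines and receptor domains, while others lack that site and work by binding. ADAMTS proteins are secreted and carry thrombospondin repeats that hold them in the extracellular matrix, where they cut proteoglycans such as versican and aggrecan, trim the ends of procollagens, or act on fibrillin microfibrils. ADAMTS-like proteins keep the repeats without any protease domain. In the embryonic heart, cutting of versican in the cardiac jelly and in the valve cushions is a known task of ADAMTS proteases.

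Promoter sequences, from 250 bases before to 50 after a gene's start, were taken from RefSeq (GRCm38.p6), where 21 of the 39 tested members had an entry and 20 had exactly 1. The 5 shown belong to members that stand for the 3 patterns described below: a rise at both days (Adamts1, chr16:85803064-85803363, minus strand, and Adamts2, chr11:50601835-50602134, plus strand), a rise called at day 14 and not at day 9 (Adamtsl3, chr7:82335444-82335743, plus strand, and Adam8, chr7:139992513-139992812, minus strand), and a fall at both days (Adamtsl4, chr3:95687868-95688167, minus strand). Capitals mark matches, on either strand, to the GC box letters GGGCGG and the TATA box letters TATAAA.
Adamts1: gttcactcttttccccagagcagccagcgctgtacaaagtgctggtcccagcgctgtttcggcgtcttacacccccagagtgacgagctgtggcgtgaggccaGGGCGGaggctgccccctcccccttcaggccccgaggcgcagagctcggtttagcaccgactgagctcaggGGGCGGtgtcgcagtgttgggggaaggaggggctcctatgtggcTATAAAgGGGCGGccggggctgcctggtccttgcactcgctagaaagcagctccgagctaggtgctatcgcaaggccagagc
Adamts2: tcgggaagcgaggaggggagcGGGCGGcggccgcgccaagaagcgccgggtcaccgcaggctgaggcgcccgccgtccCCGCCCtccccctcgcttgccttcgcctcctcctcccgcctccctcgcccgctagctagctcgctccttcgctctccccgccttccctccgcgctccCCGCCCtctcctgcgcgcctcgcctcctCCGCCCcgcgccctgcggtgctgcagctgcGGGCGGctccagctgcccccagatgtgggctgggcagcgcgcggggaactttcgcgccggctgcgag
Adamtsl3: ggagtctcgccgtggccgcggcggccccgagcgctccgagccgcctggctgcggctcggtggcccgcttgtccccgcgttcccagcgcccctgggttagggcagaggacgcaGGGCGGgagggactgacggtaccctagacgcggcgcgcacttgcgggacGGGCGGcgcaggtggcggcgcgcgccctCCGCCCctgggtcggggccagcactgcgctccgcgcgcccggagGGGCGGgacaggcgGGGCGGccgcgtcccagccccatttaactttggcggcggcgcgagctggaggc
Adam8: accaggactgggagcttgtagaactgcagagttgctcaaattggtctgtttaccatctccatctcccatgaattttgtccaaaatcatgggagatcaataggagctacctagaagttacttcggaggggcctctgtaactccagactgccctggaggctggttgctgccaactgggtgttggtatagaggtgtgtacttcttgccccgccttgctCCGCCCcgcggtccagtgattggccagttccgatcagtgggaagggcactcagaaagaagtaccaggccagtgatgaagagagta
Adamtsl4: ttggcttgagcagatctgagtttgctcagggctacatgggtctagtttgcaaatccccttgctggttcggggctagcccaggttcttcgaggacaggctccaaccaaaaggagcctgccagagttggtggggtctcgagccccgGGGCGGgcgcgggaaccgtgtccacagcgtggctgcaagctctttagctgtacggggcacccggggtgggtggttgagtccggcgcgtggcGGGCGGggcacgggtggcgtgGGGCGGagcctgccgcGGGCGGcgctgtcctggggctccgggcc
The GC box letters occur 3 times in the Adamts1 window, 5 times in those of Adamts2 and Adamtsl3, 4 times in that of Adamtsl4 and 1 time in that of Adam8, so the promoters of both directions hold them. The TATA box letters occur in the Adamts1 window only among these 5. GC content was 64.7% for Adamts1, 77.3% for Adamts2, 78.7% for Adamtsl3, 52.3% for Adam8 and 68.0% for Adamtsl4, against a median of 52.7% over all promoters. Of the 20 members with 1 entry, 14 held a GC box match, 3 a TATA box match, 1 the GATA motif AGATAA, 1 the TEAD motif GGAATG and 0 the AP-1 motif TGANTCA, all searched on both strands with no overlap between motifs required or barred. Over all 32851 promoters of this length the shares were 35.7% for the GC box, 13.6% for the TATA box, 11.2% for GATA, 14.7% for TEAD and 7.81% for AP-1. These are counts of letters in a window and say nothing of binding.

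A level below is a log2 signal, the log2 of the background-subtracted brightness minus the array's own 75th percentile, so 0 is that percentile and 1 unit is a doubling. A change is a difference of group means on this scale. A member was called where the limma test across all genes gave a Benjamini-Hochberg adjusted p under 0.05 and the change was at least 1 in size. Between 59.5% and 67.9% of probes were well above background on an array, no spot was saturated, and the 75th percentile of the brightness lay at 346.8 to 386.4 in mESC, 394.9 to 438.5 at Day 9 and 462.7 to 507.9 at Day 14. With 4 arrays a group, their number sets the limit of precision. Each group lies on a slide of its own with a scan of its own, and effects of slide, scan and group cannot be told apart. Arrays of 1 group correlated at 0.9893 or higher over the genes tested, and arrays of different groups at 0.9569 or lower.

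Adamts1, Adamts2, Adamts9, Adamts10 and Adamts15, each well above background in all 3 groups, rose at both days. Adamts8 and Adamtsl4 fell at both days, and the membrane proteases Adam9, Adam15, Adam17, Adam19 and Adam28 were called in no comparison. At day 9, 16 of the 39 tested members were called higher than in mESC, where 20.1% of all genes tested were, and 3 were called lower, where 21.0% were. At day 14, 24 members were called higher (22.8% of all genes) and 2 lower (24.0% of all genes). The median change of the tested members was 0.65 at day 9 and 2.03 at day 14, beside −0.16 and −0.19 over all genes tested. With members that were not well above background in a group set to the bounds explained below, the medians were 0.60 and 1.60. All of these leave out the members that were not tested, and they depend on the brightness filter, which kept 11 members through Day 9 and Day 14 alone, 4 through Day 14 alone and 2 through Day 9 alone. A member kept in that way had to be brighter there. Another 2 members passed in mESC and Day 14. The remaining 20 passed in all 3 groups, and among them 5 were called higher and 2 lower at day 9, and 10 higher and 1 lower at day 14. Over the 16546 genes that passed in all 3 groups, 14.9% were called higher and 19.9% lower at day 9, and 16.2% and 24.4% at day 14.

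**Figure D1:**
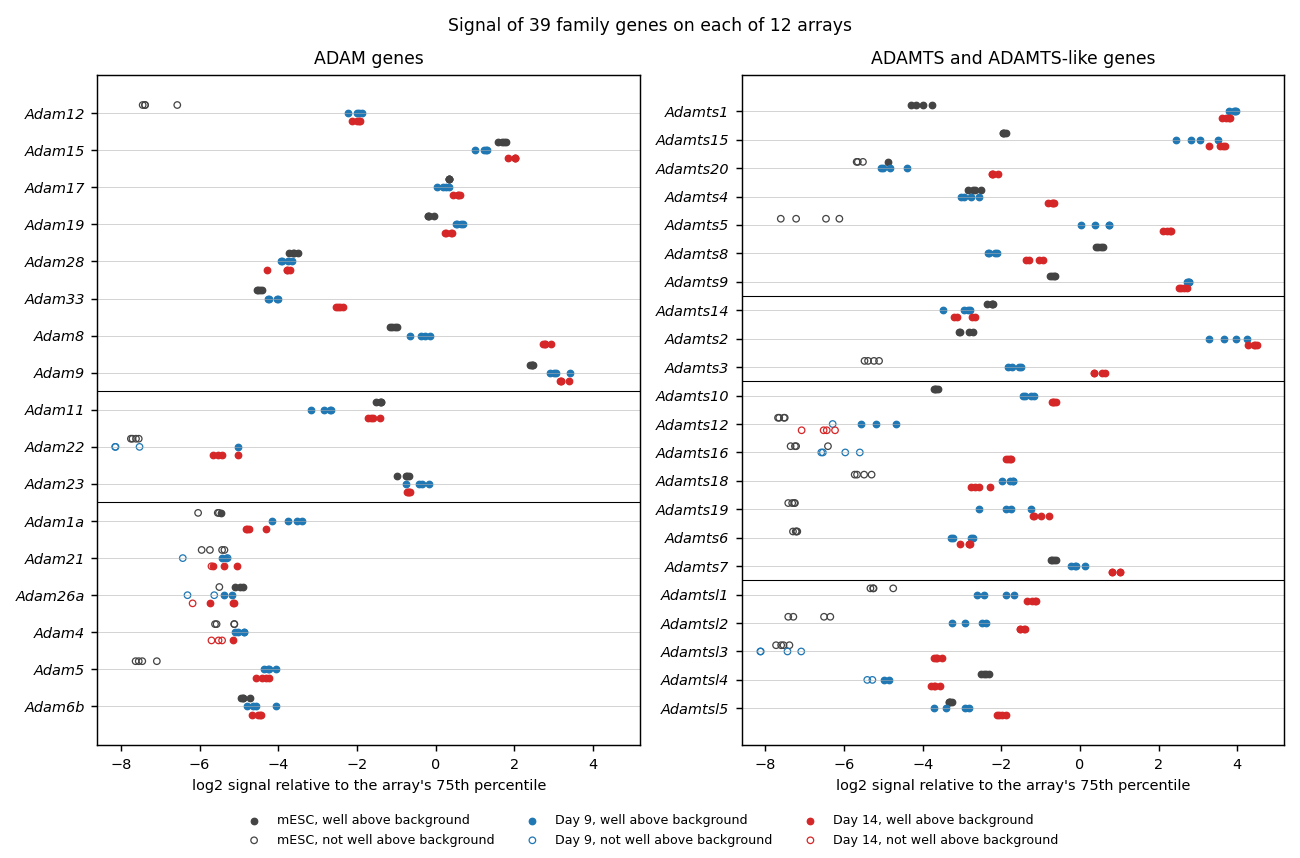
Log2 signal of the 39 tested members on each of the 12 arrays, relative to the array's 75th percentile, with 1 point per array, grey for mESC, blue for Day 9 and red for Day 14, open where the probe was not well above background, and lines between the groups by role. Adamts1, Adamts2 and Adamts5 moved from the left to the right side of the plot, while Adam15, Adam17 and Adam19 kept all 12 points close together.

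The cell markers of these samples moved with the same groups. The 5 stem cell markers all fell at both days, while the cell type field of every sample reads embryonic stem cells. The summed linear signal of these 5, in multiples of the array's 75th percentile, lay between 211 and 227 in mESC, between 2.54 and 3.67 at Day 9, and between 1.30 and 1.61 at Day 14. All 6 cardiomyocyte markers rose at both days (1.51 to 1.68 in mESC, 73.8 to 168 at Day 9, 70.7 to 99.2 at Day 14). All 7 fibroblast markers rose as well (0.959 to 1.03, then 236 to 417, then 534 to 590), and Col3a1, Dcn, Lum and Postn were not well above background in mESC. The 4 smooth muscle markers rose at both days, with sums of 8.79 to 9.42, then 117 to 135, then 93.8 to 104. Of 6 macrophage markers 2 rose at day 9 and 6 at day 14, with sums of 0.0488 to 0.0687, then 0.205 to 0.299, then 15.6 to 19.5. All 4 liver and visceral endoderm markers rose at both days (0.0336 to 0.0758, then 33.8 to 54.8, then 170 to 181). Of 5 endothelial markers 4 rose at day 9 and 3 at day 14 (1.81 to 1.96, then 4.74 to 6.86, then 2.57 to 2.90), with 1 lower at each day. Epithelial markers had 2 of 5 higher and 1 lower at day 9 and 3 and 1 at day 14, cartilage markers 2 of 5 higher at each day with 3 and 2 lower, and skeletal muscle markers 0 of 3 higher and 1 lower at day 9 and 1 and 0 at day 14. In RNA from a whole culture, fewer cells of a type and less RNA per cell cannot be told apart, and the part of these cell types in the changes below was not tested.

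Among the ADAMTS proteases that cut aggregating proteoglycans lay the largest fitted rise of any single member at each day. Of the 7 members, 4 were called higher and 1 lower at day 9, and 6 higher and 1 lower at day 14. Beside this count and those of the other roles and lists below stand the shares over all genes tested. These were 20.1% higher and 21.0% lower at day 9, and 22.8% higher and 24.0% lower at day 14. The fitted changes of this role ran from −2.74 to 7.96 at day 9 with a median of 3.45, and from −1.67 to 9.09 at day 14 with a median of 3.30. The 9.09 is that of Adamts5, from mESC signals not well above background. Medians were higher in the procollagen peptidases (3.65 at day 9 and 5.78 at day 14) and, at day 14, in the ADAMTS-like genes (3.93).

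Adamts1 encodes a versican and aggrecan protease needed for normal growth and fertility. Its log2 signal was −4.0, −4.17, −3.77 and −4.30 on the mESC arrays, 3.97, 3.79, 3.95 and 3.91 at Day 9, and 3.72, 3.81, 3.78 and 3.61 at Day 14. It rose by 7.96 ± 0.10 (SE; 250-fold; adjusted p = 6.76e-14) at day 9 and by 7.79 ± 0.10 (221-fold; adjusted p = 6.96e-14) at day 14. All 8 differentiated arrays lay far above all 4 mESC arrays, and the ranges of the days overlapped. Adamts5, its neighbour on chromosome 16, encodes aggrecanase-2, the main aggrecan protease of mouse cartilage. The Adamts5 signal was −6.46, −7.61, −7.22 and −6.12 in mESC, none of them well above background, then 0.75, 0.02, 0.39 and 0.73 at Day 9, and 2.32, 2.22, 2.29 and 2.11 at Day 14.

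Where no probe of a gene was well above background in a group, the dim group was set to the higher of its own value and the dimmest signal well above background on each array, and the fold is then a lower limit. The adjusted p beside such a limit, here and below, is that of the limma test on the signals as read, not of the limit. With the dim group set in this way, Adamts5 was at least 57.1-fold higher at day 9 and at least 194-fold higher at day 14 than in mESC (adjusted p = 4.52e-10 and 5.71e-11). It also rose from day 9 to day 14 by 1.76 ± 0.29 (3.39-fold; adjusted p = 0.00028), with no overlap between the days. Its second probe was called in the same direction in all 3 comparisons, and was not well above background in mESC either, so neither probe gives more than a lower limit against mESC. The paired neighbours were thus both higher at both days, and Adamts5 alone of the pair was called between the days.

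Adamts15 encodes a versicanase found in developing muscle and heart. Its signal was −1.88, −1.92, −1.97 and −1.97 in mESC, 3.51, 2.44, 2.83 and 3.05 at Day 9, and 3.68, 3.56, 3.63 and 3.29 at Day 14. It rose by 4.89 ± 0.18 (29.7-fold; adjusted p = 2.66e-10) at day 9 and by 5.47 ± 0.18 (44.4-fold; adjusted p = 8e-11) at day 14. Day 9 spread over about 1 unit and overlapped Day 14, while both lay above mESC throughout. Adamts8, its neighbour on chromosome 9, encodes an aggrecan protease with anti-angiogenic activity. Adamts8 read 0.54, 0.41, 0.59 and 0.47 in mESC, −2.16, −2.35, −2.32 and −2.11 at Day 9, and −1.38, −1.04, −1.29 and −0.93 at Day 14. It fell by 2.74 at day 9 (SE 0.10; 6.69-fold lower; adjusted p = 2.33e-10) and by 1.67 at day 14 (SE 0.10; 3.18-fold lower; adjusted p = 1.56e-08). Of these neighbours on chromosome 9, Adamts15 rose and Adamts8 fell at both days, and the 3 groups of Adamts8 did not overlap. From day 9 to day 14 Adamts8 rose by 1.07 ± 0.10 (adjusted p = 3.61e-06), a call that ended with median scaling (0.88), with normexp background correction (0.81) and without Day 14 replicate 4 (1.00, just under the size asked of a call).

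Adamts9 encodes a versican protease that is also active in the secretory pathway and is required for heart development. It read −0.66, −0.76, −0.70 and −0.64 in mESC, 2.77, 2.78, 2.72 and 2.76 at Day 9, and 2.65, 2.57, 2.71 and 2.51 at Day 14. The rise was 3.45 ± 0.05 (10.9-fold; adjusted p = 1.57e-13) at day 9 and 3.30 ± 0.05 (9.84-fold; adjusted p = 1.7e-13) at day 14. The 4 Day 9 arrays were just above the 4 Day 14 arrays without overlap, a difference of −0.15 that was below the size asked of a call.

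Adamts20, the closest relative of Adamts9 and the gene of the belted coat mutation, came later. Its signal was −5.52, −5.68, −4.89 and −5.65 in mESC, where 1 array was well above background, −5.07, −5.02, −4.41 and −4.83 at Day 9, and −2.25, −2.24, −2.08 and −2.21 at Day 14. The day 9 change was 0.60 with overlapping groups, and the day 14 arrays stood 3.24 ± 0.18 (9.46-fold; adjusted p = 9.12e-09) above mESC and 2.64 ± 0.18 (6.24-fold; adjusted p = 3.48e-07) above Day 9. Adamts4 encodes aggrecanase-1. It read −2.52, −2.86, −2.71 and −2.66 in mESC, −2.57, −3.03, −2.94 and −2.77 at Day 9, and −0.67, −0.68, −0.72 and −0.81 at Day 14. mESC and Day 9 overlapped (a change of −0.14), and Day 14 was 1.97 ± 0.10 (3.92-fold; adjusted p = 3.43e-09) above mESC and 2.11 ± 0.10 (4.31-fold; adjusted p = 1.71e-08) above Day 9. Neither gene was called at day 9, and both were brighter on all 4 Day 14 arrays than on any other array. Other probes of Adamts20 were not tested, and none of them was well above background on a Day 14 array.

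**Figure D2:**
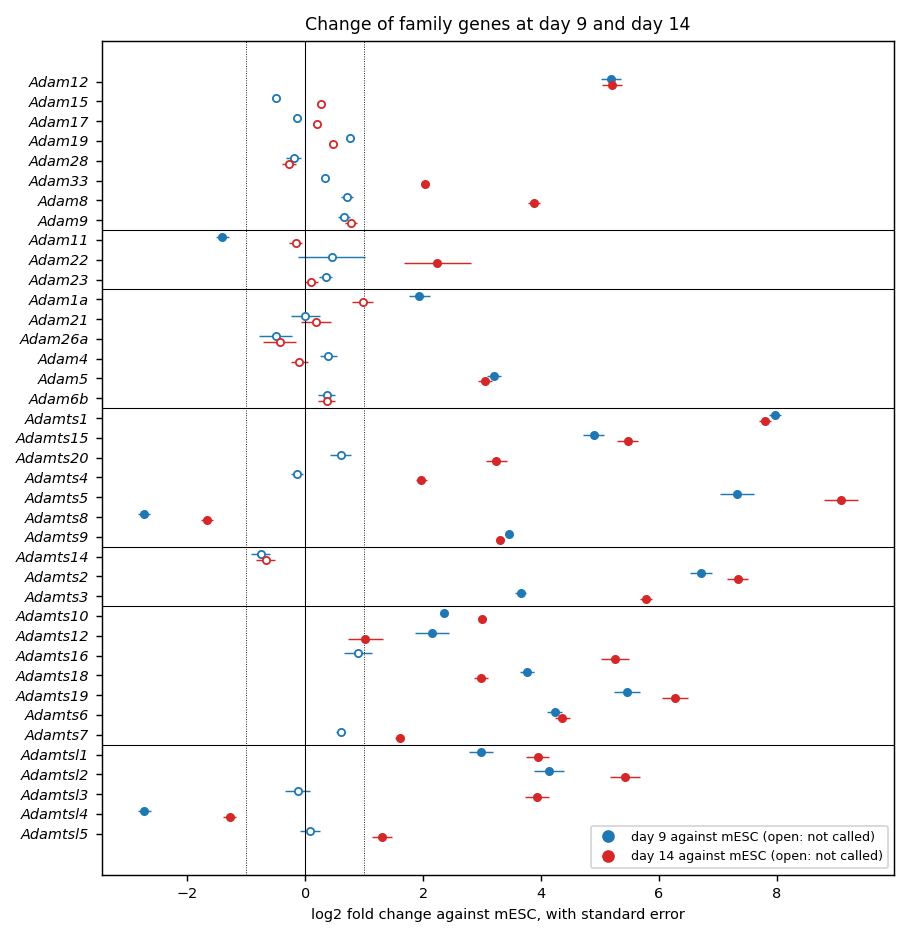
Change of each tested member against mESC at day 9 (blue) and day 14 (red) on the log2 scale, with bars for the standard error, filled points for called members, dotted lines at a change of 1 in either direction and solid lines between the roles. The points farthest to the right are those of Adamts5 (9.09 at day 14, from mESC signals not well above background) and Adamts1 (7.96 at day 9), and Adamts8 and Adamtsl4 are the members called lower at both days.

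The 3 procollagen N-propeptidases remove the amino-terminal propeptide so that collagen can form fibrils. Adamts2, whose loss causes fragile skin, read −3.08, −2.81, −2.72 and −3.06 in mESC, 4.25, 3.27, 3.66 and 3.98 at Day 9, and 4.44, 4.51, 4.43 and 4.27 at Day 14. It rose by 6.71 ± 0.18 (104-fold; adjusted p = 1.71e-11) at day 9 and by 7.33 ± 0.18 (161-fold; adjusted p = 6.64e-12) at day 14, and its 2 other tested probes, not well above background in mESC, were called higher at both days. Its arrays at Day 9 and Day 14 were all above 3 and those of mESC all below −2. Adamts3 acts on procollagen and, with CCBE1, activates the lymphatic growth factor VEGF-C. Adamts3 read −5.24, −5.11, −5.48 and −5.39 in mESC, none well above background, −1.56, −1.82, −1.73 and −1.51 at Day 9, and 0.55, 0.35, 0.64 and 0.35 at Day 14. Adamts3 was at least 12.1-fold higher at day 9 and at least 52.8-fold higher at day 14 (adjusted p = 2.53e-11 and 5.76e-13), and rose between the days by 2.13 ± 0.10 (4.36-fold; adjusted p = 1.89e-08). The 3 groups of Adamts3 formed 3 steps without overlap. Its other tested probe was not well above background on any mESC or Day 9 array, and was called higher at day 14. Adamts14, the third, was not called: its mean was −2.27 ± 0.07 (SD, n = 4) in mESC, −3.03 ± 0.32 at Day 9 and −2.94 ± 0.27 at Day 14. Its changes of −0.76 and −0.67 (limma adjusted p = 0.000936 and 0.00214) were below the size asked of a call. The arrays of neither day overlapped those of mESC.

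Genes for their substrates were called too. Of 8 tested genes for procollagens and fibril partners, 7 were called higher at each day, led at day 9 by Col3a1 (at least 2560-fold), Col1a2 (8.13), Col1a1 (7.27) and Col5a2 (6.10 on the log2 scale). The procollagen list had a median change of 4.99 at day 9 and 5.79 at day 14. Col1a1, Col1a2 and Col3a1 are also fibroblast markers used above.

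The other ADAMTS proteases act on fibrillin microfibrils, on cartilage oligomeric matrix protein (COMP) or on targets that are less well known. Of 8 members with a probe 7 were tested, and 5 of them were called higher at day 9 and 7 at day 14, with none called lower. The 7 include Adamts12, whose probe was not well above background in mESC or at Day 14. Adamts13, the protease of von Willebrand factor, was not well above background on any array.

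Adamts10 and Adamts6 are close relatives that act on fibrillin. Adamts10 read −3.69, −3.70, −3.62 and −3.66 in mESC, −1.25, −1.40, −1.16 and −1.45 at Day 9, and −0.62, −0.71, −0.65 and −0.69 at Day 14, 3 groups without overlap. It rose by 2.35 ± 0.06 (5.11-fold; adjusted p = 1.44e-11) at day 9 and by 3.0 ± 0.06 (8-fold; adjusted p = 1.82e-12) at day 14. Adamts6 read −7.19, −7.30, −7.21 and −7.23 in mESC, none well above background, −2.71, −3.28, −3.24 and −2.76 at Day 9, and −2.81, −3.06, −2.83 and −2.80 at Day 14. This made Adamts6 at least 5.15-fold higher at day 9 and at least 5.61-fold higher at day 14 (adjusted p = 4.91e-11 and 2.98e-11). The days overlapped for Adamts6, and for Adamts10 the Day 14 arrays were all the brighter ones.

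Adamts16 and Adamts18 are a pair of related proteases, the first linked to blood pressure and kidney and the second to eye and lung development. Adamts16 read −7.25, −7.36, −6.41 and −7.22 in mESC and −6.54, −6.58, −5.60 and −5.97 at Day 9, with no probe well above background on these 8 arrays, and −1.77, −1.87, −1.76 and −1.83 at Day 14. No fold is given at day 9. Day 14 was at least 11.8-fold above mESC and at least 14.7-fold above Day 9 (adjusted p = 1.45e-09 and 6.02e-08). Adamts18 read −5.73, −5.49, −5.30 and −5.67 in mESC, none well above background, −1.70, −1.99, −1.70 and −1.78 at Day 9, and −2.77, −2.28, −2.66 and −2.58 at Day 14. Adamts18 was thus at least 11.9-fold higher at day 9 and at least 6.92-fold higher at day 14 (adjusted p = 8.76e-11 and 5.13e-10). The pair thus differed in time. Adamts18 was bright on all Day 9 arrays, which lay above all its Day 14 arrays. The probe that stands for Adamts16 was bright at Day 14 alone among the 3 groups. A second probe of Adamts16 was not tested and was not well above background on any array, those of Day 14 included.

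Adamts19, in which loss is known to cause heart valve disease, read −7.25, −7.42, −7.27 and −7.32 in mESC, none well above background, −2.56, −1.25, −1.75 and −1.87 at Day 9, and −1.20, −1.17, −0.99 and −0.79 at Day 14. It was at least 11.4-fold higher at day 9 and at least 20-fold higher at day 14 (adjusted p = 5.04e-10 and 1.23e-10). Day 9 replicate 2 was close to the Day 14 arrays and replicate 1 was the dimmest of the 8. The change of 0.82 between the days was not called, and it was 1.02 and called without Day 9 replicate 2. Adamts7 and Adamts12 are relatives that both cut COMP. Adamts7 was at −0.68 in mESC, −0.08 at Day 9 and 0.91 at Day 14 as group means, and was called higher at day 14 (1.60 ± 0.08; 3.02-fold; adjusted p = 3.65e-09).

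Adamts12 was dim throughout. It read −7.53, −7.68, −7.51 and −7.65 in mESC, −4.69, −6.29, −5.58 and −5.18 at Day 9, and −6.44, −7.08, −6.52 and −6.23 at Day 14, and the probe was well above background on 3 Day 9 arrays and on no other. It was called higher at day 9 (2.15 ± 0.29; adjusted p = 2.68e-05) and at day 14 (1.02 ± 0.29; adjusted p = 0.00633), and lower at day 14 than at day 9 (−1.13 ± 0.29; adjusted p = 0.00531). No fold is given, and the day 14 call against mESC compares signals that were not well above background in either group. The day 14 call ended without mESC replicate 2 (0.99), without Day 14 replicate 1 (0.98) and without Day 14 replicate 4 (0.91), and the call between the days ended without Day 9 replicate 1 (−0.89) and without Day 14 replicate 2 (−0.96). With no filter on dim probes another probe stands for the gene, and it was called in no comparison (0.80, 0.21 and −0.58). With normexp background correction it was called in no comparison (0.10, 0.39 and 0.29), the last with the sign turned.

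The 5 ADAMTS-like genes encode matrix proteins without a protease domain, several of which bind fibrillin. At day 9, 2 were called higher and 1 lower, and at day 14 it was 4 and 1. Adamtsl1, or punctin, read −5.26, −5.33, −4.75 and −5.25 in mESC, none well above background, −1.69, −2.63, −2.44 and −1.89 at Day 9, and −1.15, −1.12, −1.21 and −1.35 at Day 14. It was at least 7.91-fold higher at day 9 and at least 15.4-fold higher at day 14 (adjusted p = 5e-08 and 3.33e-09), with Day 14 above all Day 9 arrays. The change of 0.96 between the days was not called, and it became a call without Day 9 replicate 1 (1.11), Day 9 replicate 4 (1.05) or Day 14 replicate 4 (1.00). Adamtsl2, mutated in a short-stature disorder with heart valve thickening, read −7.29, −7.42, −6.51 and −6.35 in mESC, none well above background, −3.26, −2.38, −2.50 and −2.92 at Day 9, and −1.52, −1.40, −1.53 and −1.43 at Day 14. Adamtsl2 was at least 6.06-fold higher at day 9 and at least 14.9-fold higher at day 14 (adjusted p = 2.45e-08 and 1.73e-09), and rose between the days by 1.29 ± 0.25 (2.45-fold; adjusted p = 0.00102). Both genes climbed in steps without overlap.

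Adamtsl3, or punctin-2, had no probe well above background on any mESC or Day 9 array, at −7.60, −7.73, −7.54 and −7.39 and at −7.44, −8.13, −8.12 and −7.09. At Day 14 it read −3.67, −3.63, −3.72 and −3.50, at least 3.32-fold above mESC and at least 4.35-fold above Day 9 (adjusted p = 4.59e-09 and 2.92e-08). All 4 Day 14 arrays stood apart from the other 8. Adamtsl5, which binds fibrillin and heparin, read −3.33, −3.31, −3.26 and −3.33 in mESC, −2.83, −3.72, −3.42 and −2.92 at Day 9, and −1.87, −2.11, −1.99 and −2.05 at Day 14. Its day 9 change was 0.08 with overlapping groups, and it rose at day 14 by 1.30 ± 0.17 (2.47-fold; adjusted p = 1.48e-05) and between the days by 1.22 ± 0.17 (2.33-fold; adjusted p = 6.69e-05). The day 14 call ended with median scaling (0.98). Another probe of Adamtsl5 was called higher at day 9 already (1.09).

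Adamtsl4, a fibrillin-binding protein whose loss displaces the lens of the eye, went the other way. It read −2.38, −2.51, −2.44 and −2.31 in mESC, −5.28, −4.99, −4.87 and −5.41 at Day 9, where 2 arrays were well above background, and −3.69, −3.57, −3.70 and −3.79 at Day 14. It fell by 2.73 at day 9 (SE 0.11; 6.63-fold lower; adjusted p = 4.43e-10) and by 1.28 at day 14 (SE 0.11; 2.43-fold lower; adjusted p = 3.51e-07). From day 9 to day 14 it rose by 1.45 ± 0.11 (2.73-fold; adjusted p = 5.86e-07). Day 14 thus lay between Day 9 and mESC on all arrays, the order that Adamts8 showed too.

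Of the 8 membrane ADAM genes with a protease site, 1 was called higher at day 9 (20.1% of all genes), 3 at day 14 (22.8% of all genes) and none lower. Adam12, a protease of mesenchymal and muscle precursor cells known to shed HB-EGF, read −7.45, −7.39, −6.57 and −7.39 in mESC, none well above background, −1.86, −2.23, −2.0 and −1.94 at Day 9, and −1.91, −1.95, −2.0 and −2.13 at Day 14. It was at least 10.2-fold higher at day 9 and at least 10.3-fold higher at day 14 (adjusted p = 1.17e-10 and 9.07e-11). The days lay on top of each other. Adam33, a gene of smooth muscle cells and fibroblasts studied in asthma, read −4.47, −4.53, −4.41 and −4.51 in mESC, −4.01, −4.24, −4.25 and −4.04 at Day 9, and −2.36, −2.44, −2.54 and −2.47 at Day 14. It rose by 2.03 ± 0.07 at day 14 (4.07-fold; adjusted p = 6.96e-11) and by 1.68 ± 0.07 between the days (3.21-fold; adjusted p = 3.75e-09). Its day 9 change of 0.34 was not called, although the arrays of mESC and Day 9 did not overlap.

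Adam8, a protease of leukocytes and osteoclasts, read −0.98, −1.12, −1.02 and −1.15 in mESC, −0.28, −0.64, −0.37 and −0.13 at Day 9, and 2.79, 2.74, 2.94 and 2.78 at Day 14. It rose by 3.88 ± 0.10 at day 14 (14.7-fold; adjusted p = 7.6e-12) and by 3.17 ± 0.10 between the days (8.98-fold; adjusted p = 5.56e-10), and was not called at day 9 (0.71). All 4 Day 14 arrays stood apart at the top. The 6 macrophage markers rose over the same interval, with the sums given above, and Adgre1, C1qa and C1qc were not well above background on any mESC or Day 9 array. Their part in the Adam8 change was not tested.

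Adam17, which releases tumour necrosis factor and EGF receptor ligands, had means of 0.35 in mESC, 0.21 ± 0.13 (SD, n = 4) at Day 9 and 0.54 ± 0.08 at Day 14, and was called in no comparison. Adam9, a widely expressed sheddase, stood at 2.45 ± 0.04 in mESC, 3.11 ± 0.22 at Day 9 and 3.23 ± 0.11 at Day 14, changes of 0.65 and 0.78 that were below the size asked of a call. For Adam9 quantile normalization gave 1.05 at day 14, which was called. The changes of the uncalled Adam15, Adam19 and Adam28 lay between −0.50 and 0.77 over the 3 comparisons.

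Adam11, Adam22 and Adam23 lack a working protease site and bind LGI proteins, chiefly at nerve cell contacts. Adam11 read −1.42, −1.52, −1.39 and −1.39 in mESC, −3.17, −2.67, −2.69 and −2.83 at Day 9, and −1.72, −1.59, −1.64 and −1.42 at Day 14. It fell by 1.41 at day 9 (SE 0.11; 2.65-fold lower; adjusted p = 1.37e-07) and rose between the days by 1.25 ± 0.11 (2.37-fold; adjusted p = 1.64e-06). At Day 14 its arrays overlapped those of mESC (a change of −0.16), and all 3 tested probes of Adam11 gave the same calls.

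Adam22 read −7.62, −7.75, −7.55 and −7.71 in mESC, none well above background, −7.53, −8.15, −8.14 and −5.02 at Day 9, and −5.44, −5.54, −5.65 and −5.03 at Day 14. Day 9 replicate 4 alone of its group was well above background and as bright as the brightest Day 14 array, so the days overlapped. Adam22 was called higher at day 14 (2.24 ± 0.57; adjusted p = 0.00311) and between the days (1.79 ± 0.57; adjusted p = 0.0168), with no fold given since all values lie near the background. The call between the days ended without Day 9 replicate 3 (1.48; adjusted p = 0.0508). Adam23 was not called by the probe that stands for it (0.35 at day 9 and 0.10 at day 14), while its other probe, well above background on 2 of 4 mESC arrays, was called higher at both days (2.31 and 1.80). Of 4 tested neuron markers, 1 was called higher and 1 lower at day 9, and 2 higher and 1 lower at day 14, with sums of 2.63 to 3.05 in mESC, 1.44 to 2.57 at Day 9 and 2.54 to 3.72 at Day 14. The 3 tested LGI genes were all called higher at day 14, Lgi3 by 2.22 and Lgi2 by 1.37. Lgi4 was called higher at day 9 too, from mESC signals of its probe that were not well above background, so no size is given.

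The ADAM genes of testis and epididymis, many of which act in sperm maturation and fertilization, were the role with the smallest share tested: 6 of 17 with a probe were tested. Of the 11 that were not, 10 were not well above background on any array, and Adam32 was on 2 mESC arrays. Adam5 read −7.09, −7.63, −7.46 and −7.55 in mESC, none well above background, −4.23, −4.27, −4.36 and −4.05 at Day 9, and −4.32, −4.42, −4.57 and −4.23 at Day 14. It was at least 2.20-fold higher at day 9 and at least 1.97-fold higher at day 14 (adjusted p = 2.73e-10 and 3.36e-10), and the days overlapped. The day 14 limit is below the size asked of a call, so that call rests on mESC signals not well above background. A second probe of the same Adam5 accession was not well above background on any array. Adam1a was called higher at day 9 alone of the comparisons (1.93 ± 0.18; adjusted p = 1.18e-06), from a mean of −5.64 in mESC to −3.71 at Day 9 and −4.67 at Day 14. At day 14 its change was 0.97, and it became a call (1.00 to 1.03) when mESC replicate 1, 2 or 4 or Day 14 replicate 1 or 3 was left out. Between the days its change of −0.96 became a call without Day 9 replicate 2 (−1.10) or Day 14 replicate 4 (−1.07). A second probe of Adam1a was not tested and was not well above background on any mESC or Day 9 array. The uncalled Adam4, Adam6b, Adam21 and Adam26a had changes between −0.50 and 0.39. Adam1a, Adam6b and Adam26a have close relatives in Adam1b, Adam6a and Adam26b, and how far each probe tells them apart was not tested. The 5 tested germ cell and sperm markers were not called higher at either day, and 3 of them fell at both days.

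From day 9 to day 14 the family's changes were mostly upward. Of the 39 tested members 14 were called higher, where 10.2% of all genes were, and 1 was called lower (Adamts12), where 3.60% were. The median was 0.63, or 0.63 with bounds, beside −0.09 over all genes. This comparison shares its arrays with the other comparisons, so the counts are not independent of each other. By role, 4 of 5 ADAMTS-like genes and 4 of 7 proteoglycan-cutting ADAMTS genes were called higher, against 2 of 8 membrane ADAM proteases, 1 of 3 procollagen peptidases, 1 of 7 other ADAMTS genes, 2 of 3 ADAM genes without a protease site and 0 of 6 testis genes. Among the 20 members above background in all 3 groups, 6 were called higher and 0 lower, where 5.89% and 2.64% of genes passing in all 3 groups were. Adamts16 and Adamtsl3 have only lower limits here. Among the members well above background on all arrays of both days, Adam8 (3.17), Adamts20 (2.64) and Adamts3 (2.13) had the largest changes. Adamts1, Adamts9 and Adam12, which were high at both days, had changes of −0.18, −0.15 and 0.01 and were not called.

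**Figure D3:**
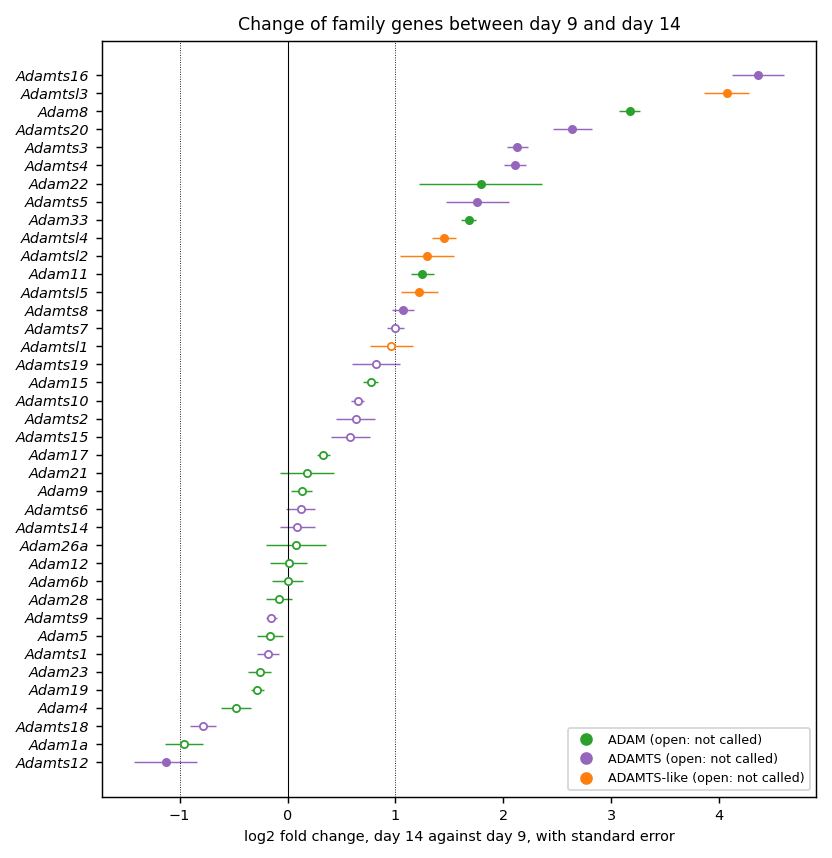
Change from day 9 to day 14 of each tested member on the log2 scale, ordered by size, with bars for the standard error, filled points for called members and dotted lines at a change of 1 in either direction. Filled points lie on the right for 14 members, from Adamts16 (4.36, from Day 9 signals not well above background) to Adamts8 (1.07), and on the left for Adamts12 (−1.13).

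How arrays are scaled moved the split of all called genes. With each array reduced by its median in place of its 75th percentile, the share of called genes that were higher went from 48.7% to 36.4% at day 14 and from 73.9% to 58.9% between the days, and the median change of all genes went from −0.16 to −0.29 at day 9, from −0.19 to −0.51 at day 14 and from −0.09 to −0.28 between the days. Under that scaling 4 of 117 member results changed their call: Adamts12 (0.70) and Adamtsl5 (0.98) lost it at day 14, Adamts8 (0.88) lost it between the days, and Adam1a (−1.15) gained one between the days. Background correction had a wider effect. With normexp, which adds an offset before the log, Adamts1 changed by 5.98 and Adamts2 by 5.50 at day 9, and dim members shrank most, such as Adam12 to 1.23 and Adamts19 to 1.26, both still called. It ended the calls of Adam11, Adam1a, Adam5, Adamts6, Adamts12, Adamtsl1, Adamtsl2 and Adamtsl4 at day 9, of Adam5, Adam22, Adam33, Adamts12, Adamtsl3, Adamtsl4 and Adamtsl5 at day 14, and of Adam11, Adam22, Adam33, Adamts8, Adamts12, Adamtsl2, Adamtsl3, Adamtsl4 and Adamtsl5 between the days.

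For 17 members more than 1 probe was tested, and probes that were not tested are left out of the counts here. All tested probes of a member gave the same call in 14 of 17 at day 9, in 16 of 17 at day 14 and in 16 of 17 between the days, and no probe was called opposite to the one that stands for its gene. The exceptions were Adam23, Adamts3 and Adamtsl5 at day 9, Adam23 at day 14 and Adamts7 between the days, where the second probe of Adamts7 was called (1.06) and the first fell just short (1.00). Without Day 9 replicate 1, Day 14 replicate 3 or Day 14 replicate 4 the first was called too (1.03 to 1.07). These counts include probes that were not well above background in 1 of the groups compared, such as the second probe of Adamts3 at day 9, whose lack of a call says nothing of the gene.

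**Figure D4:**
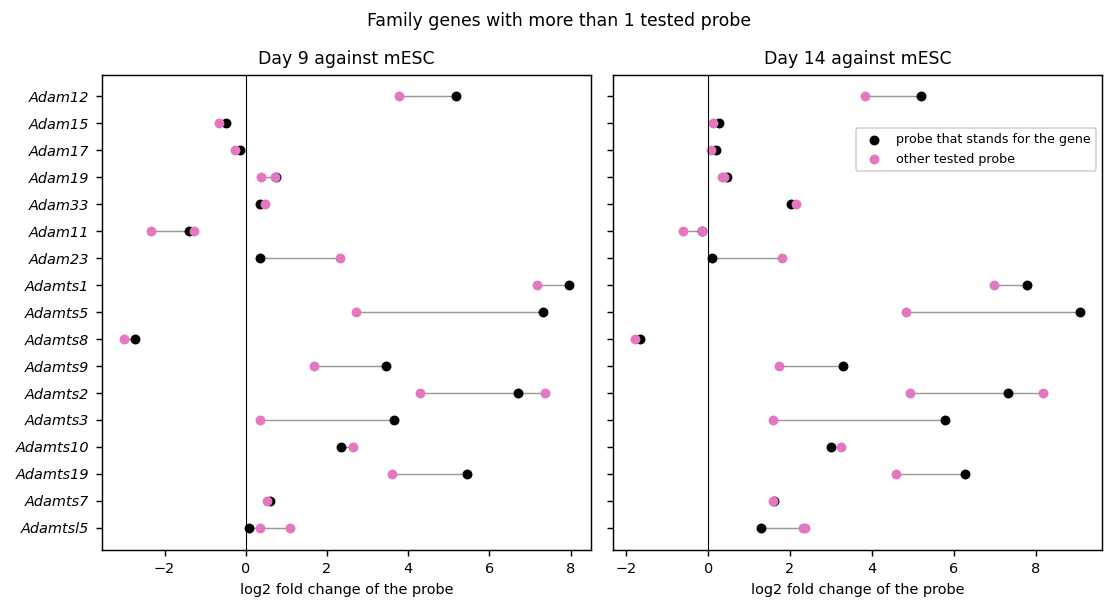
Change against mESC at day 9 (left) and day 14 (right), on the log2 scale, of each tested probe of the 17 members with more than 1, black for the one used as the gene's value and pink for the others, joined by a line. Adamts5, Adamts3 and Adamts2 have the widest lines, their pink probes not well above background in mESC, and the probes of Adamts8 stay together below 0.

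The members' inhibitors, processing enzymes and substrates were read from lists of their own. Tissue inhibitors of metalloproteinases bind the active site, and Timp3 is the one known to inhibit ADAM and ADAMTS proteases broadly. Timp3 read −2.54, −3.00, −2.81 and −2.99 in mESC, 1.97, 1.64, 1.55 and 1.89 at Day 9, and 2.99, 3.01, 3.12 and 3.09 at Day 14. Of the 5 inhibitor genes, 3 rose at both days: Timp3 by 4.60 ± 0.12 and 5.89 ± 0.12 (adjusted p = 1.17e-11 and 1.44e-12), Timp2 by 4.66 and 5.86, and Reck by 1.91 and 2.10. Timp1 (−0.64 and −0.03) and Timp4 (−0.32 and −0.24), named here to complete the list, were not called. The inhibitor list had a median of 1.91 at day 9 and 2.10 at day 14.

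Of the 6 genes for aggregating proteoglycans and their link proteins, 2 were called higher and 3 lower at day 9, and 3 and 3 at day 14. Versican (Vcan) read −3.65, −3.65, −3.60 and −3.69 in mESC, 0.53, 0.88, 0.82 and 0.64 at Day 9, and −0.31, −0.12, −0.17 and −0.09 at Day 14. It rose by 4.37 ± 0.08 at day 9 and by 3.48 ± 0.08 at day 14 (adjusted p = 7.45e-13 and 3.44e-12), and the link protein gene Hapln1 was at least 12-fold and at least 8.52-fold higher. Aggrecan (Acan), the cartilage proteoglycan, fell by 2.77 and 1.91 (adjusted p = 3.16e-09 and 7.65e-08), and brevican (Bcan) fell at both days, at least 15.1-fold at day 9. The substrates of these proteases thus split, versican up and aggrecan down, while 6 of their 7 proteases were called higher at day 14.

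**Figure D5:**
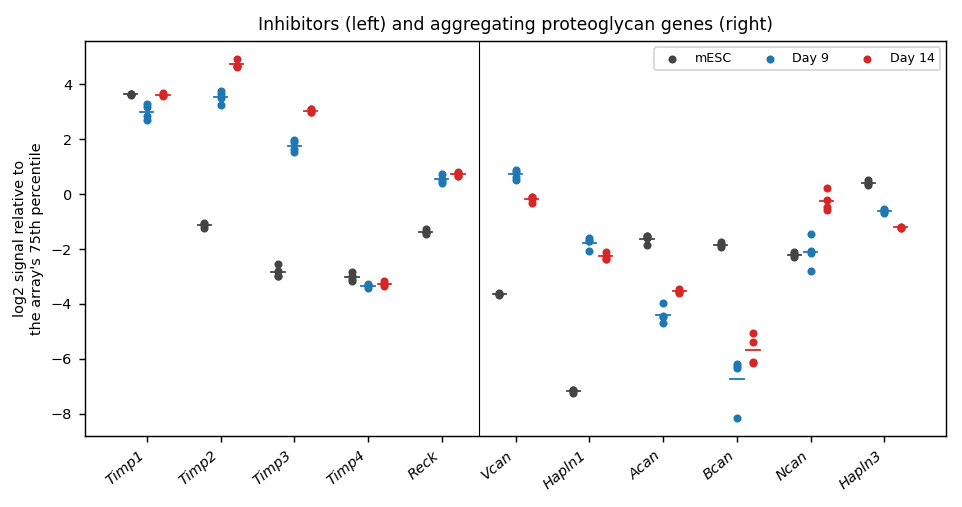
Log2 signal, relative to the array's 75th percentile, of 5 inhibitor genes (left) and 6 genes for aggregating proteoglycans and their link proteins (right), with 1 point per array and a bar at the group mean, grey for mESC, blue for Day 9 and red for Day 14. Timp2, Timp3, Reck, Vcan and Hapln1 lie higher at both days than in mESC, Acan, Bcan and Hapln3 lie lower, and the means of Timp1 and Timp4 stay within 1 unit of mESC.

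ADAM and ADAMTS proteases are made with a prodomain that proprotein convertases cut off. Of 5 convertase genes, 2 were called higher and 1 lower at day 9, and 1 and 1 at day 14: Pcsk5 changed by 6.08 and 5.56, Pcsk6 by −5.15 and −4.17, and Furin by 1.66, which was called, and 0.90, which was not. ADAM17 and ADAM10 reach the cell surface with iRhom and tetraspanin partners, and of 8 such genes tested 1 was called higher and 4 lower at day 9, and 1 higher and 3 lower at day 14. The iRhom gene Rhbdf1 rose by 1.33 and 1.34, the other iRhom gene, Rhbdf2, fell by 1.75 and 1.68, and Tspan15 fell by 2.0 and 2.21. Among 24 tested genes for proteins that ADAM proteases shed, 8 were called higher and 5 lower at day 9, and 13 and 5 at day 14. Those called higher at day 14 include Kitl (at least 40.6-fold), Cdh5 (at least 17.7-fold) and Cdh2 (4.98 on the log2 scale). Those called lower at both days include Cdh1, by −3.60 and −4.02, and Tgfa, by −2.50 and −2.11. Over all genes tested, 20.1% were called higher and 21.0% lower at day 9, and 22.8% and 24.0% at day 14. Tumour necrosis factor (Tnf), not well above background on any mESC or Day 9 array, was at least 3.88-fold higher at day 14 than at day 9.

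The list of other ADAMTS substrates and clearance receptors had 8 of 13 genes called higher and 3 lower at day 9, and 9 and 1 at day 14. Fbn1 and Fbn2, the fibrillins to which ADAMTS6, ADAMTS10 and ADAMTS-like proteins bind, rose by 5.62 and 6.38 at day 9 and by 5.61 and 6.73 at day 14. The thrombospondin genes Thbs1 and Thbs2 were at least 63.3-fold and at least 128-fold higher at day 14. Of the genes called lower, Vwf changed by −4.90 at day 9 and by −5.21 at day 14. Comp (−1.90) and Sdc4 (−1.86) were called lower at day 9 and not at day 14. Pofut2, which adds the fucose that thrombospondin repeats need for secretion, rose by 1.24 and 1.76. Of 3 relatives whose symbols fall outside the rule, Thsd4 (ADAMTS-like 6) rose by 4.66 and 5.63, and Papln was at least 4.49-fold higher at day 14 and not well above background before it. Adamdec1, not well above background in mESC, was at least 1.69-fold higher at day 14, and its day 9 call rests on overlapping groups with 2 of 4 Day 9 arrays well above background.

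The spread among the 4 arrays of a group was wider at Day 9 than in the other groups. The median SD of the members above background was 0.073 in mESC (22 members), 0.215 at Day 9 (33 members) and 0.101 at Day 14 (37 members), beside 0.069, 0.131 and 0.084 over all genes above background there. At Day 9 the widest was Adamts12 with an SD of 0.676.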

How the data were processed

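Gene expression was measured in 12 samples, 4 each of mESC, Day 9 and Day 14. Per the file headers and the submitters' processing notes, the one-colour arrays were extracted singly by Agilent Feature Extraction 12, and the deposited processed signal is an intensity: spot brightness after background subtraction and detrending, not scaled between arrays. The deposited median spot and local background signals are uncorrected intensities, per the file headers. Other deposited columns used are flags and control types, per the file headers. The authors' series table holds the same intensity values (0 differences).

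Control spots and outlier spots were left out, spots of a probe were averaged as log2, and the 75th percentile of an array was subtracted from its values. Probes were tested when well above background on at least 3 of 4 arrays of at least 1 group (28385 of 41174 probes). Probes were named by accession through an annotation of GRCm38.p6, which left 12951 unnamed. Since the array's own annotation is of the older mm9, only names, gene neighbours and promoter sequences were taken from GRCm38.p6. A gene took the value of its brightest tested probe by mean, and unnamed probes were grouped by accession. Group means over all 12 arrays were compared with limma 3.58.1 in R 4.3.3, two-sided, with Benjamini-Hochberg adjustment over 20875 genes, unnamed accessions counted among them. The code was tested on simulated data.

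Values on every array are given for members called with a change of at least 2 or called between the days, and from other lists up to 4 called genes with the largest change are named, of which 1 is not reported here. Members and lists were chosen with earlier results of these data known. Same-numbered arrays did not deviate together (correlations from −0.08 to 0.18), so the replicate number was not used as a block. Alternatives were normexp (offset 50), quantile and median scaling, no filter, a filter on all 12 arrays, the mean over probes, a trended robust variance, the 8 arrays compared alone, a replicate block and leaving out each array.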

Additional observations from a re-analysis of the deposited data

Results flagged for a closer look

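Within a group of 4 arrays, a single array was set apart where its gap to the nearest of the others exceeded Dixon's critical share of the group's range. This held in 7 of the 88 gene and group combinations tested, and chance gives about 1 in 20. In the Day 14 group, replicate 4 was apart for 4 membrane genes: Adam15 at 1.85 (others 2.02 to 2.03), Adam9 at 3.40 (3.17 to 3.18), Adam1a at −4.32 (−4.81 to −4.74) and Adam28 at −4.30 (−3.79 to −3.71), all as log2 signal relative to the array's 75th percentile. Adamts6 was at −3.06 on Day 14 replicate 2 (others −2.83 to −2.80). In mESC, Adam19 was at −0.05 on replicate 1 (−0.19 to −0.17) and Adamts14 at −2.37 on replicate 2 (−2.24 to −2.22). Of these 7 genes Adam1a and Adamts6 were called in any comparison, and no call of Adamts6 changed without that array, while the change of Adam1a between the days became a call without Day 14 replicate 4 (−1.07).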

How the results depend on the processing

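With normexp background correction the counts of members called higher and lower were 10 and 1 at day 9 (16 and 3 as reported) and 6 and 0 between the days (14 and 1), and 18 and 1 at day 14 (24 and 2), and this setting ended 23 member calls and turned the sign of Adamts12 between the days (0.29). Without a filter 5 were lower at day 9 and 0 between the days. With probes above background on all 12 arrays, which leaves 20 members, 5 were higher at day 9, 10 higher and 1 lower at day 14, and 6 higher and 0 lower between the days, and all 60 member results that remained kept direction and call. Quantile normalization and median scaling each gave 2 lower between the days. Leaving out 1 array gave 16 to 17 higher and 3 lower at day 9, 23 to 25 higher and 2 lower at day 14, and 13 to 16 higher and 0 to 2 lower between the days; the count of 0 came without Day 9 replicate 1 or Day 14 replicate 2, and that of 2 without Day 9 replicate 2 or Day 14 replicate 4. The replicate block, as a check of pairing, gave 16 and 3, 24 and 2, and 14 and 1, and changed no call in 117 member results. The series table was not run apart, as it holds the same values. Signals near background limit the dim members, whose changes are bounds; the cause of the other differences was not tested.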
